A study of Mus musculus with 8 samples.

Results

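The genes described here are 44 genes of the lysosome: proteases, glycosidases, lipid-handling proteins and cofactors, membrane glycoproteins, subunits of the V-ATPase proton pump, mucolipin channels, and the transcription factors of the TFEB family with the autophagy receptor gene Sqstm1. They were taken by name from a fixed list, and all 44 were among the 55376 genes of the deposited count table. The values come from mouse bone marrow-derived dendritic cells, a cultured type of antigen-presenting cell, that were exposed overnight to 1 of 2 heat-killed Prevotella species. The groups were P. heparinolytica (PH, 3 samples) and P. melaninogenica (PM, 3 samples), each with the sample ids 1, 3 and 4, and the comparison asks how the cells' expression differs between the bacteria. There were no cells without bacteria. Not given in the sources used here are the mice's strain, age and sex, the cultures' growth factors, the bacterial dose, and whether an id stands for a mouse or a culture.

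Lysosomes are acidic compartments in which hydrolases break down proteins, sugars, lipids and nucleic acids taken up by the cell or delivered by autophagy. The V-ATPase pumps protons into them, membrane glycoproteins such as LAMP1 line them, and mucolipin channels release calcium and other cations from them. Transcription factors of the TFEB, TFE3 and MITF family bind E-box-like sites in the promoters of many of these genes and raise their expression together. In dendritic cells lysosomal proteases trim antigens and the invariant chain for presentation on MHC class II, and the acidity and protease content of the compartment are known to change when the cells mature.

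The 6 samples had 11624367 to 40233148 counts, and PH replicate 3 was the shallowest. It also stood apart in Gm42418, a predicted gene, at 4029 CPM against 878 to 1496 CPM in the other samples. CPM (counts scaled to a common library total) were computed with edgeR's TMM factors. Of a list of conventional dendritic cell markers, the integrin gene Itgax was at 133 to 178 CPM and the invariant chain gene Cd74 at 3313 to 4188 CPM. Flt3 was at 44.2 to 61.2 CPM and Zbtb46 at 59.4 to 84.4 CPM over the 6 samples. Cd209a was at 0 in every sample, and Xcr1 and Clec9a, markers of a dendritic cell subset, were at most at 0.433 and 1.43 CPM. In samples of many cells such as these, a change in the number of cells of a type and a change in RNA per cell cannot be told apart.

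Lysosomal genes lay mostly a little higher with PM. One by one, few of them passed in the fit that ignores the sample id, while most of the 44 passed with samples paired by id. For single genes, here and below, rose and fell stand for passing in the fit that ignores the sample id. Gla, which encodes alpha-galactosidase, and Mcoln3, which encodes a channel of the mucolipin family, rose with PM, while Ctsc, the gene of cathepsin C, fell. These 2 higher and 1 lower were 4.55% and 2.27% of the 44 members, against 0.702% and 1.64% of the 14382 genes tested (edgeR quasi-likelihood test without a term for the sample id, adjusted p of 0.05). With the sample id as a block, which uses the pairing of PH and PM samples, 25 members were higher and 2 lower (56.8% and 4.55%), against 7.00% and 8.27% of all genes. Of these, 15 higher and 1 lower also passed in the blocked fit with any 1 id left out, a count not given here for all genes. The count of higher members in that fit was 22 without id 1, 16 without id 3 and 18 without id 4. Over all genes tested, those higher were 868 of 14958, 644 of 14753 and 696 of 14140 in the same order.

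The members' median log2 fold change, PM over PH, was 0.145, against 0.009 over all genes tested. Of the 44, 38 lay above 0 (86.4%, against 52.4% of all genes). Within ids, 33 were higher with PM in 3 of 3 ids (75.0%, against 22.7% of all genes) and 3 were lower in 3 of 3 (6.82%, against 22.7%). In 18 members every PM sample lay above every PH sample (40.9%, against 10.1%), and in 2, Ctsc and Mitf, every PM sample lay below (4.55%, against 9.28%). Within id 1 the median difference was 0.153, within id 3 0.14 and within id 4 0.123. In the fit without the block, leaving out PM replicate 1 but keeping PH replicate 1 lowered the median log2 fold change to 0.084. In the blocked fit with an id left out of both treatments, the median was 0.133 (id 1), 0.132 (id 3) and 0.15 (id 4). For 16 of the 27 members that passed with the block, leaving out 1 sample moved the log2 fold change without the block by over 1.5 times, mostly with PM replicate 1 (13 members) or PH replicate 3 (8 members) left out. This count is not given here for all genes. Here and below, a fit with 1 sample left out keeps the other sample of its id. As shares of the unscaled library totals, the members took 2.70% to 3.10% in the PH samples and 3.12% to 3.55% in the PM samples. These shares did not overlap but leave out the TMM factors (0.9785 in PH replicate 1, 1.017 and 1.02 in PM replicates 3 and 4). With those factors the members' summed CPM was higher in PH replicate 1 than in PM replicates 3 and 4. The single gene Psap made up 25.2% of the members' summed CPM.

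**Figure D1:**
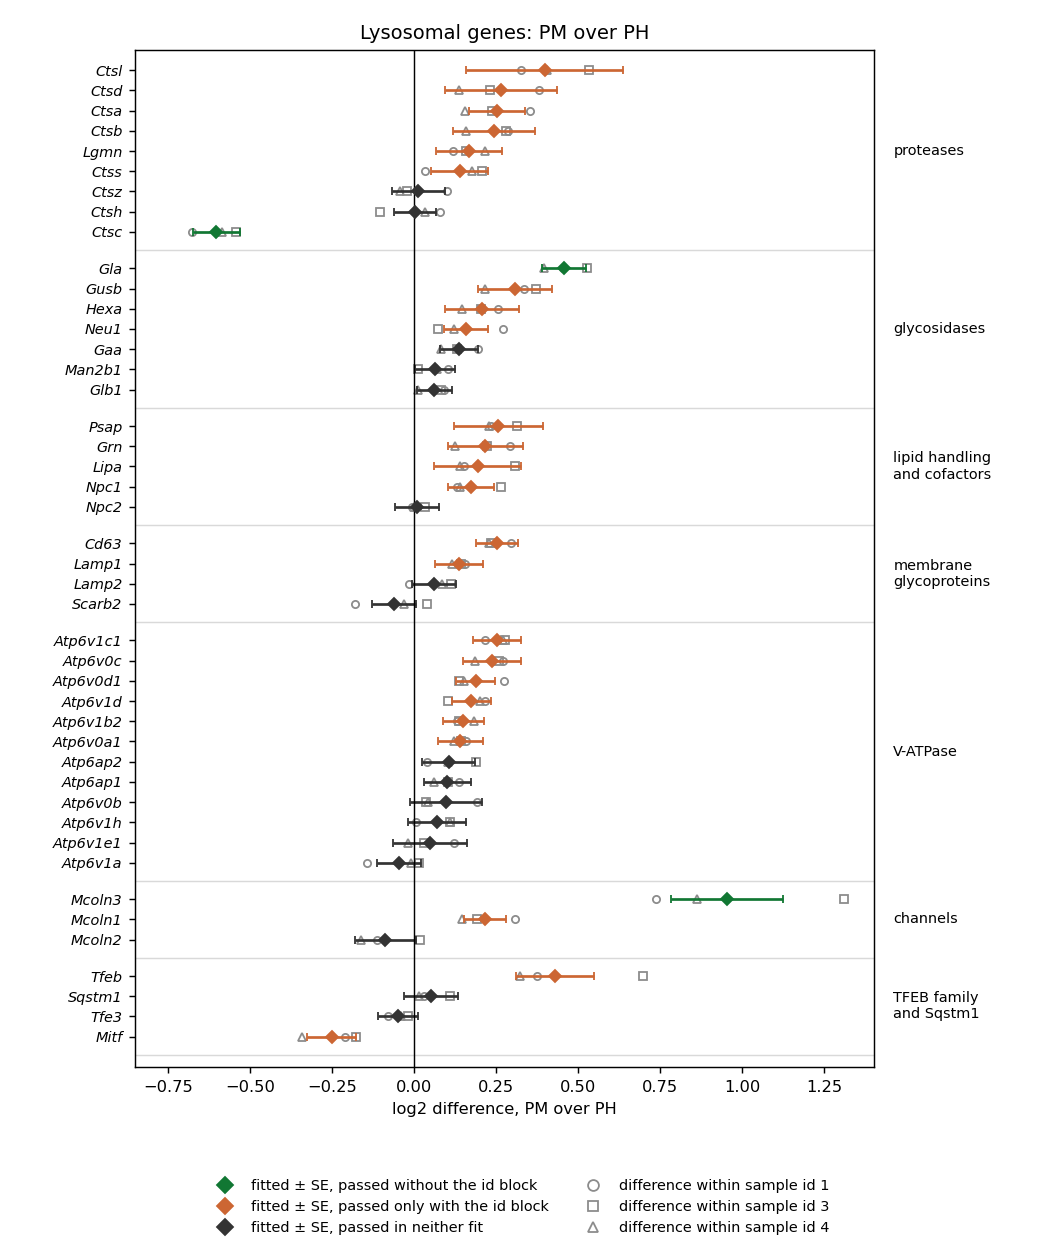
Each row is 1 gene, and the x axis is the log2 difference of PM over PH. Diamonds are fitted log2 fold changes ± SE (3 samples a group) and open symbols are the differences within each sample id. Most genes lie between 0 and 0.5, with Mcoln3 (0.95) to the right and Ctsc (-0.60) to the left of them.

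**Figure D2:**
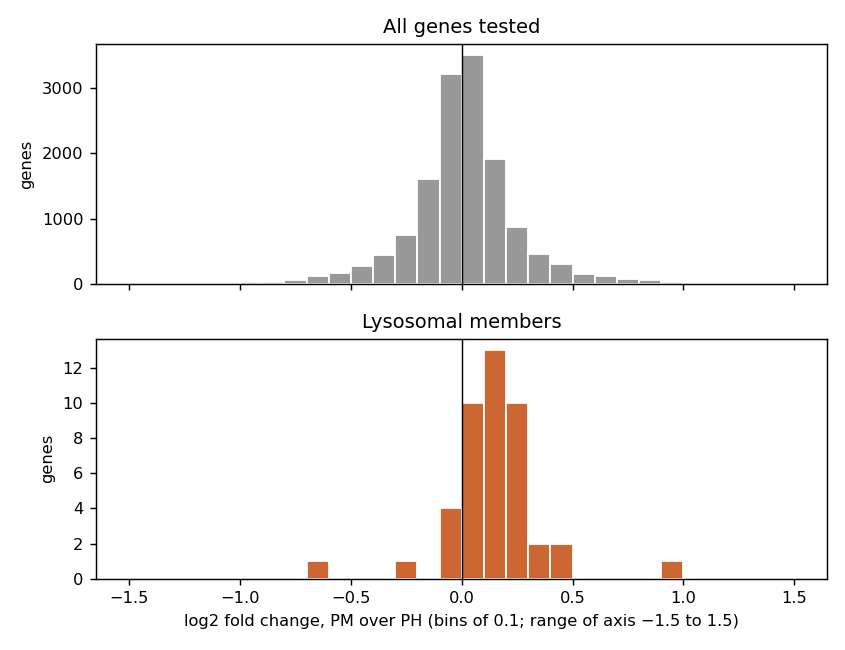
Number of genes (y axis) in bins of 0.1 of the log2 fold change, PM over PH (x axis), for all 14382 genes tested (top) and the 44 lysosomal members (bottom). All genes centre on 0 (median 0.009), and the members lie to the right (median 0.145).

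The 9 protease genes went different ways. Ctsc encodes cathepsin C, a dipeptidyl peptidase known for activating serine proteases of granules, and lies on chromosome 7, 88278085 to 88310888, plus strand (GRCm38). In the order of ids 1, 3 and 4, here and below, its level was 557, 495 and 544 CPM in the PH samples and 349, 339.8 and 363 CPM in the PM samples. All PM samples lay below all PH samples, and the means were 532 ± 32.8 CPM (PH) and 350.4 ± 11.6 CPM (PM) (SD, n = 3). Its log2 fold change was -0.60 ± 0.07 (SE), or 0.659 times the PH level, at adjusted p = 0.00363 by edgeR, and it still passed with any 1 of the 6 samples left out (adjusted p = 0.0042 to 0.0362). Ctsc was the single protease lower in 3 of 3 ids, while 6 of the 9 were higher in 3 of 3 ids.

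These 6 were Ctsl, Ctsd, Ctsa, Ctsb, Lgmn and Ctss, and each passed only with the block. Ctsl encodes cathepsin L, an endopeptidase that degrades the invariant chain, and its level was 272, 141 and 194 CPM in the PH samples and 341, 204 and 257 CPM in the PM samples. The groups overlapped, because PH sample 1 was higher than PM samples 3 and 4, yet each PM sample was above the PH sample of its id, by 0.33, 0.53 and 0.41 on the log2 scale. Its log2 fold change was 0.40 ± 0.24, with adjusted p = 0.545 without the block and 5.3e-08 with it. Ctsd, the aspartic protease cathepsin D, was at 3059, 2284 and 2462 CPM in the PH samples and 3978, 2683 and 2708 CPM in the PM samples, with the highest level in id 1 in both groups. It differed by 0.26 ± 0.17 on the log2 scale, at adjusted p = 0.579 without the block and 4.4e-04 with it. Ctsb, the cysteine protease cathepsin B, followed the same order of samples, at 3007, 2363 and 2642 CPM in the PH samples and 3669, 2869 and 2946 CPM in the PM samples. The log2 fold change of Ctsb was 0.24 ± 0.12, at adjusted p = 0.46 without the block and 4.0e-04 with it. Without PM replicate 1 the unblocked log2 fold change was 0.18 for Ctsl, 0.04 for Ctsd and 0.11 for Ctsb, and without PH replicate 1 that of Ctsl was 0.66. Within ids 3 and 4 the difference was 0.232 and 0.137 for Ctsd and 0.28 and 0.157 for Ctsb.

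Ctsa, whose product cathepsin A also protects the galactosidase and neuraminidase enzymes, was at 393, 359 and 382 CPM in the PH samples and 503, 423 and 425 CPM in the PM samples, without overlap of the groups. The difference of 0.25 ± 0.09 (log2) had adjusted p = 0.228 without the block and 2.5e-04 with it. Ctss (cathepsin S, the main protease of the last steps of invariant chain removal) and Lgmn (asparaginyl endopeptidase) differed less, by 0.14 ± 0.09 and 0.17 ± 0.10. Their adjusted p was 0.567 and 0.538 without the block and 0.0477 and 0.0107 with it. In the blocked fit Ctss was at adjusted p = 0.422 without id 3 and 0.253 without id 4, and Lgmn at 0.113 and 0.193. Ctsz, a carboxypeptidase and the protease gene with the highest level per length, was at 2327, 2322 and 2238 CPM in the PH samples and 2492, 2285 and 2170.0 CPM in the PM samples, a log2 fold change of 0.01 ± 0.08. Ctsh, an aminopeptidase, had 0.00 ± 0.07, and neither passed in either fit. Exons of Ctsd (31.5% of their length), Ctsl (28.2%), Ctsa (22.3%) and Ctsb (16.3%) overlap another gene in the deposited table, so part of their reads could belong to that gene.

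All 7 glycosidase genes were higher with PM in 3 of 3 ids, and 1 of them, Gla, rose. Gla lies on chromosome X, 134588149 to 134601125, minus strand, and its enzyme removes terminal galactose from glycolipids. Its level was 117, 103 and 115 CPM in the PH samples and 161, 149 and 152 CPM in the PM samples. Every PM sample lay above every PH sample, with means of 112 ± 7.49 CPM (PH) and 154 ± 6.21 CPM (PM) (SD, n = 3). The log2 fold change was 0.46 ± 0.07, or 1.37 times the PH level, at adjusted p = 0.01 by edgeR. Without PH replicate 4 its adjusted p was 0.06, and without PM replicate 4 it was 0.0522.

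With the block, Gusb, Hexa and Neu1 passed as well. Gusb, the beta-glucuronidase gene, was at 248, 197 and 212 CPM in the PH samples and 313, 255 and 246 CPM in the PM samples, and 1 PM sample (id 4) lay just below PH sample 1. Gusb had a log2 fold change of 0.31 ± 0.11, at adjusted p = 0.282 without the block and 9.5e-06 with it. Hexa, the alpha subunit of hexosaminidase, had the highest level per length of the class and was at 436, 358 and 375 CPM in the PH samples and 521, 413 and 415 CPM in the PM samples. It overlapped between the groups, with a log2 fold change of 0.21 ± 0.11 and an adjusted p of 0.494 without and 0.00184 with the block. Without PM replicate 1 the unblocked log2 fold change was 0.18 for Gusb and 0.08 for Hexa. Neu1, a sialidase, was at 165, 167 and 162 CPM in the PH samples and 199, 176 and 177 CPM in the PM samples, with its largest difference in id 1. Its log2 fold change of 0.16 ± 0.07 had adjusted p = 0.363 without the block and 0.0244 with it, and 0.212, 0.0614 and 0.0764 when id 1, 3 or 4 was left out of the blocked fit. Gaa, acid alpha-glucosidase, had 0.14 ± 0.06, Man2b1, an alpha-mannosidase, 0.06 ± 0.06, and Glb1, beta-galactosidase, 0.06 ± 0.05, and these 3 passed in neither fit. Levels of Gaa and Glb1 still did not overlap, at 132, 134 and 132 CPM in the PH samples and 151, 147 and 139.8 CPM in the PM samples for Gaa and at 90.5, 88.7 and 92.3 CPM in the PH samples and 96.3, 94.1 and 93.2 CPM in the PM samples for Glb1.

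Of the 5 genes of lipid handling and cofactors, 4 passed with the block alone and Npc2 in neither fit. Psap encodes prosaposin, the precursor of activators of sphingolipid hydrolases, and had the highest level per length of all 44. Its level was 8283, 6251 and 6666 CPM in the PH samples and 9747, 7762 and 7815 CPM in the PM samples. Id 1 was highest in both groups and PH sample 1 lay above PM samples 3 and 4, while the differences within ids were 0.23, 0.31 and 0.23. The log2 fold change was 0.26 ± 0.14, at adjusted p = 0.476 without the block and 1.5e-04 with it. Grn, the gene of progranulin, was at 509.9, 416 and 457 CPM in the PH samples and 624, 485 and 498 CPM in the PM samples, a log2 fold change of 0.22 ± 0.11 with adjusted p = 0.475 without and 0.00144 with the block.

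Lipa encodes the acid lipase that frees cholesterol from its esters, and Npc1 the membrane protein that passes that cholesterol on. Lipa was at 494, 360.2 and 391 CPM in the PH samples and 548, 446 and 431 CPM in the PM samples (0.19 ± 0.13, adjusted p = 0.606 and, with the block, 0.00302). Npc1 was at 139, 121 and 139 CPM in the PH samples and 152, 146 and 153 CPM in the PM samples (0.17 ± 0.07, adjusted p = 0.327 and, with the block, 0.0103). Without PM replicate 1 the unblocked log2 fold change was 0.13 for Psap, 0.08 for Grn and 0.07 for Lipa, and without PH replicate 1 that of Lipa was 0.33. Without id 3 the blocked adjusted p was 0.194 for Lipa and 0.253 for Npc1. Npc2, the soluble cholesterol carrier that works with NPC1, was at 1084, 1029.8 and 1078 CPM in the PH samples and 1079, 1053 and 1079 CPM in the PM samples, nearly level at 0.01 ± 0.07. By edgeR without the block 0 of these 5 genes passed, 1 had an unadjusted p under 0.05, and DESeq2 called 0. Over all genes DESeq2 called 202 higher and 378 lower of 13992. The share of all genes at an unadjusted p under 0.05 is not given, here or below.

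Among the 4 membrane glycoproteins, Cd63 had the clearest separation. Cd63 encodes a tetraspanin of late endosomes and exosomes, and it was at 674, 703 and 708 CPM in the PH samples and 828, 828 and 829 CPM in the PM samples. The PM samples were nearly level with each other and above all PH samples. Its log2 fold change was 0.25 ± 0.06, at adjusted p = 0.0955 without the block, 1.3e-04 with it and 0.00141 by DESeq2. Lamp1, the major glycoprotein of the lysosomal membrane, was at 935, 875 and 871 CPM in the PH samples and 1041, 967 and 942 CPM in the PM samples, also without overlap, a log2 fold change of 0.14 ± 0.07 with adjusted p = 0.479 without and 0.0412 with the block. Leaving id 1, 3 or 4 out of the blocked fit put Lamp1 at 0.109, 0.253 and 0.123. Lamp2, which has an isoform for chaperone-mediated autophagy, differed by 0.06 ± 0.07, and Scarb2, the receptor that carries beta-glucocerebrosidase to lysosomes, by -0.06 ± 0.07. Neither passed in either fit.

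The 12 genes of the V-ATPase leaned one way by small steps: 11 had a log2 fold change above 0, 10 were higher in 3 of 3 ids, and the largest was 0.25. By edgeR without the block 0 passed, 5 had an unadjusted p under 0.05 (a share not given for all genes), and DESeq2 called 0. With the block 6 were higher, against 7.00% of all genes. The pump has a membrane part, V0, that conducts protons, and a cytosolic part, V1, that burns ATP. Of V0, Atp6v0c, the main subunit of the proton-carrying ring, was at 268, 227 and 252 CPM in the PH samples and 323, 272 and 286 CPM in the PM samples. PM sample 3 was only just above PH sample 1, and the log2 fold change was 0.24 ± 0.09 (adjusted p = 0.28, or 2.5e-04 with the block). Atp6v0d1, which links the ring to the central stalk, was at 221, 231 and 226 CPM in the PH samples and 267, 254 and 251 CPM in the PM samples (0.19 ± 0.06, adjusted p = 0.192, or 0.00439 with the block). Atp6v0a1, the large subunit of the proton channel, differed by 0.14 ± 0.07 and passed with the block (adjusted p = 0.0355), but leaving id 1, 3 or 4 out of that fit gave 0.0568, 0.228 and 0.156. Atp6v0b, another ring subunit and the member with the highest level per length here, was at 463, 406 and 402 CPM in the PH samples and 529, 416 and 414 CPM in the PM samples. Its difference was close to 0 outside id 1, at 0.19, 0.04 and 0.04, and it passed in neither fit.

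Of V1, Atp6v1c1, a subunit at which the 2 parts of the pump dock, was at 169, 146 and 152 CPM in the PH samples and 196, 177 and 184 CPM in the PM samples. All PM samples were above all PH samples, with a log2 fold change of 0.25 ± 0.07 (adjusted p = 0.155, or 1.3e-04 with the block). Atp6v1d, a subunit of the central stalk, and Atp6v1b2, a subunit of the ATP-hydrolysing head, did not overlap between groups either. Atp6v1d was at 117, 127 and 122 CPM in the PH samples and 136, 137 and 141 CPM in the PM samples (0.17 ± 0.06, adjusted p = 0.221, or 0.00995 with the block and 0.136 there without id 4). Atp6v1b2 was at 435, 412 and 413 CPM in the PH samples and 475, 453 and 469 CPM in the PM samples (0.15 ± 0.06, adjusted p = 0.353, or 0.0219 with the block and 0.156 and 0.204 there without id 3 or 4). The catalytic subunit gene Atp6v1a did not share this lean, at 478, 441 and 473 CPM in the PH samples and 433, 446 and 469 CPM in the PM samples, a log2 fold change of -0.05 ± 0.07. Atp6v1e1 (0.05 ± 0.11), Atp6v1h (0.07 ± 0.09) and the accessory genes Atp6ap1 (0.10 ± 0.07) and Atp6ap2 (0.10 ± 0.08) passed in neither fit.

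The 3 mucolipin genes differed from each other in level and in response. Mcoln3, on chromosome 3, 146121672 to 146141806, plus strand, was at 4.48, 3.80 and 5.57 CPM in the PH samples and 7.50, 9.79 and 10.2 CPM in the PM samples. It was the lowest per length of the 44, at 1.54 CPM per kb of exon with PH and 3.06 with PM. All PM samples were above all PH samples, and id 3 had the largest difference within an id (0.74, 1.31 and 0.86). The log2 fold change of 0.95 ± 0.17, 1.94 times the PH level, passed at adjusted p = 0.0238 by edgeR. Its adjusted p was 0.0822 without PH replicate 1, 0.0856 without PH replicate 3, 0.0913 without PM replicate 3 and 0.121 without PM replicate 4.

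Mcoln1, the widely expressed lysosomal calcium channel gene and itself a known TFEB target, was at 49.2, 55.2 and 53.1 CPM in the PH samples and 60.9, 63.2 and 58.8 CPM in the PM samples, without overlap. The log2 fold change of Mcoln1 was 0.22 ± 0.06, at adjusted p = 0.161 without the block and 0.00712 with it. In the blocked fit it was at 0.0505 without id 1 and 0.0502 without id 3. Mcoln2, the third family member, had the highest level per length of these channels (56.4 CPM per kb over all samples) and was at 173, 144 and 148 CPM in the PH samples and 159.5, 146 and 133 CPM in the PM samples. The groups overlapped, the log2 fold change was -0.09 ± 0.09, and it passed in neither fit. Mcoln2 and Mcoln3 lie side by side on chromosome 3.

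Within the TFEB family the 3 factors did not move together. Tfeb, on chromosome 17, 47737030 to 47792419, plus strand, was at 12.2, 9.15 and 12.8 CPM in the PH samples and 15.9, 15.0 and 16.0 CPM in the PM samples, so that every PM sample was above every PH sample. Its means were 11.4 ± 1.95 CPM (PH) and 15.6 ± 0.509 CPM (PM) (SD, n = 3) and its log2 fold change was 0.43 ± 0.12, at adjusted p = 0.131 without the block and 4.7e-04 with it. PH sample 3 was the lowest, and without id 3 the blocked log2 fold change of Tfeb was 0.34 (adjusted p = 0.0174). Mitf, on chromosome 6, 97807052 to 98021349, plus strand, went the other way, at 41.7, 38.9 and 45.9 CPM in the PH samples and 36.0, 34.5 and 36.2 CPM in the PM samples, with every PM sample below every PH sample. Its log2 fold change was -0.25 ± 0.07, at adjusted p = 0.161 without the block, 0.0029 with it and 0.177 in the blocked fit without id 4. Tfe3, the most abundant of the 3 per length (25.1 CPM per kb, against 7.30 for Mitf and 3.36 for Tfeb), was at 97.8, 89.1 and 90.1 CPM in the PH samples and 92.5, 88.0 and 87.6 CPM in the PM samples. It was lower with PM in each id by small amounts (-0.08, -0.02 and -0.04), the groups overlapped, and at -0.05 ± 0.06 it passed in neither fit. Sqstm1, which encodes the autophagy receptor p62, was at 2700.3, 2735 and 2548 CPM in the PH samples and 2755, 2947 and 2577 CPM in the PM samples and differed by 0.05 ± 0.08, and exons over 20.5% of its length overlap another gene.

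**Figure D3:**
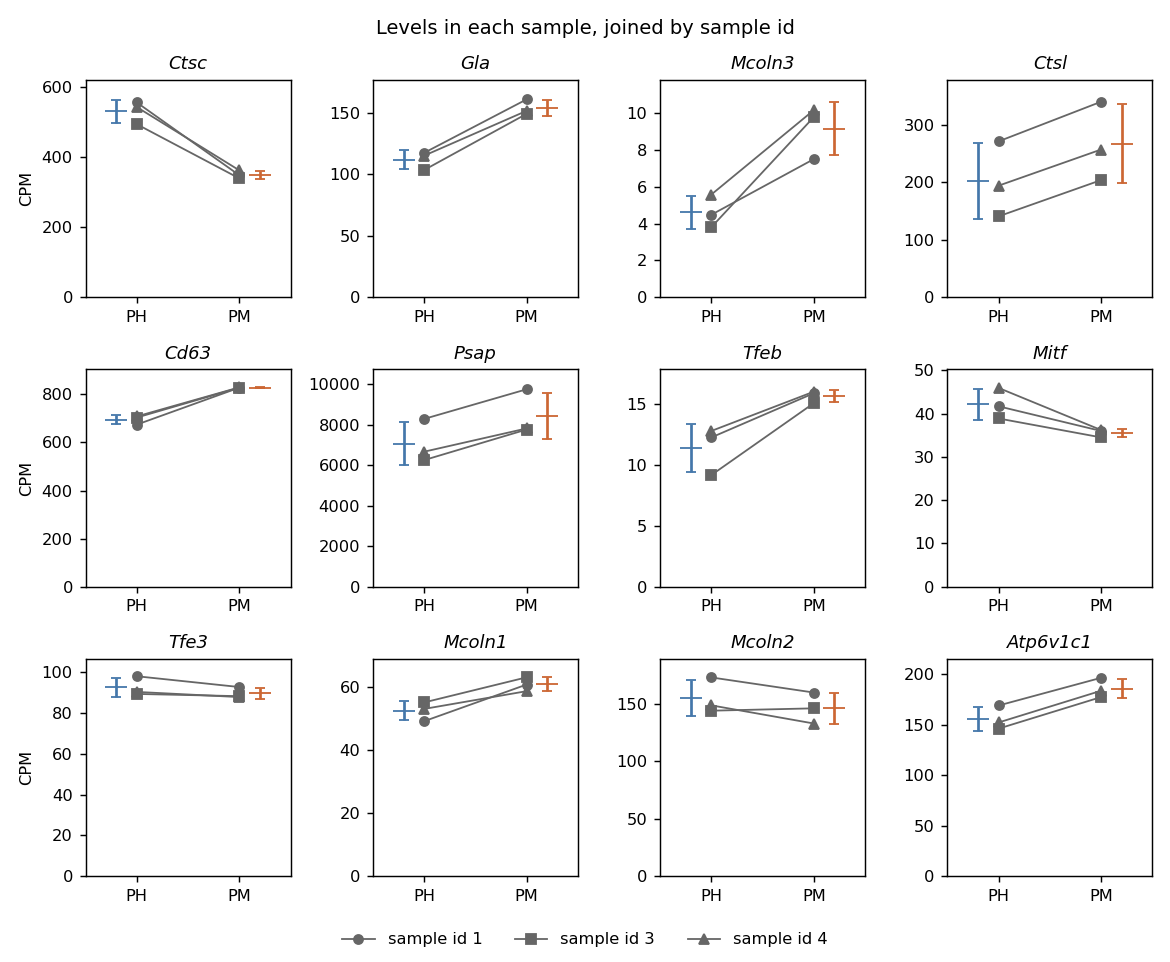
CPM (y axes, each from 0) of 12 lysosomal genes in the PH and PM samples. Grey lines join samples of the same id, and the coloured marks beside them are group means ± SD of 3 samples. Ctsc falls in each id, Gla, Mcoln3, Cd63 and Tfeb separate upward without overlap, and Ctsl and Psap overlap between groups but go up in each id.

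Promoter windows were searched for the E-box that the TFEB family is known to bind. They were RefSeq's (build GRCm38.p6), from 250 bases before to 50 bases after the annotated start, and 38 of the 44 members had one. The E-box core CACGTG, a palindrome and thus the same on both strands, was in windows of 13 of these 38 genes (34.2%), against 8.09% of 27025 genes. The 27025 were all genes with a window, whether or not they were tested for expression. Such sites were already known in many lysosomal promoters, so a higher share among the members is no independent result. The longer palindrome TCACGTGA, which contains that core, was in 6 of the 38 (15.8%, against 1.12% of genes). The full CLEAR consensus of TFEB, which adds a G before and a C after that palindrome, was in 0 of the 38 and in 0.37% of all genes. These matches describe letters in the windows and are no measure of binding. The stretches below show TCACGTGA (in capitals, read 5′ to 3′ on the gene's strand) before the start sites of 5 members, with up to 11 bases on each side. They are shown because they are the longest matches among the members. The starts are those of RefSeq. By the gene bounds of the deposited table, the stretches of Ctsd, Ctsa and Mcoln1 lie inside the gene, and those of Gla and Atp6v1a lie before it. In the remaining member, Atp6v0d1, the match begins 4 bases before the start and runs across it, and it is not shown.
Gla, at chrX:134601182-134601211, minus strand, first capital 195 bases before the start: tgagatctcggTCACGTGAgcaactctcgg
Gla, at chrX:134601215-134601244, minus strand, 228 bases before: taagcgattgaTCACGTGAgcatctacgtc
Ctsd, at chr7:142387908-142387937, minus strand, 99 bases before: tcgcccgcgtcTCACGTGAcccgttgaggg
Ctsa, at chr2:164833749-164833772, plus strand, 13 bases before: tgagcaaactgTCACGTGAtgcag
Mcoln1, at chr8:3500462-3500491, plus strand, 46 bases before: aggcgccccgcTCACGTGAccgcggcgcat
Atp6v1a, at chr16:44139373-44139402, minus strand, 132 bases before: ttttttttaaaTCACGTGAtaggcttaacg

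Gla, the glycosidase gene that rose, thus has a pair of these sites. Ctsa, which passed only with the block, has a pair too, the other beginning at base 5 counted from the start and not shown. Atp6v1a, whose level did not pass in either fit, has a single one. Lamp1 has the densest run of the shorter core, 4 copies (in capitals) in the 80 bases before its start.
Lamp1, at chr8:13159081-13159160, plus strand: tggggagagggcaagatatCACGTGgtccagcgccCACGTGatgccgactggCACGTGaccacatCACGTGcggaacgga

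By class, the core was in windows of 4 of 7 protease genes, 3 of 7 glycosidase genes, 3 of 9 V-ATPase genes, 2 of 3 channel genes, 1 of 4 membrane glycoprotein genes and 0 of 4 genes of lipid handling and cofactors. Windows of Mcoln3 and of the TFEB family genes held none of the 3 motifs. Of the 13 genes with the core 8 were higher with the block and 0 lower, with a median log2 fold change of 0.168. Of the 25 without it 13 were higher and 2 lower, with a median of 0.139. Whether the 2 sets differ was not tested.

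Other genes of the lysosome outside the 44 leaned the same way in part. For scale, 0.702% of all genes tested were higher and 1.64% lower without the block, and 7.00% and 8.27% with it. These shares apply to every list below. Of 8 more V-ATPase subunit genes tested, 1 rose (2 with the block). This was Atp6v0d2, the d subunit found in macrophages and osteoclasts, at 79.4, 76.6 and 82.3 CPM in the PH samples and 116, 122 and 139.7 CPM in the PM samples (0.66 ± 0.08, adjusted p = 0.00366). With the block Atp6v1g1, a stalk subunit, passed too (0.22 ± 0.06). Of 8 other proteases 2 rose (5 with the block): Ctsk, the collagen-degrading cathepsin K, at 96.6, 58.8 and 77.5 CPM in the PH samples and 165, 122 and 143 CPM in the PM samples, and Dpp7, a dipeptidyl peptidase, at 32.1, 38.0 and 38.0 CPM in the PH samples and 51.5, 52.5 and 52.2 CPM in the PM samples. Their log2 fold changes were 0.88 ± 0.17 and 0.53 ± 0.08, with adjusted p = 0.0335 and 0.00895. Ctsk passed without PH replicate 1 but not without any other sample (adjusted p = 0.0591 to 0.153) and not with no low-count filter (0.168), and Dpp7 was at 0.0522 without PM replicate 4. With the block Tpp1, a tripeptidyl peptidase, passed too (0.20 ± 0.06).

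Of 26 other hydrolases of sugars, lipids, sulfates and nucleic acids, 1 fell, and with the block 9 were higher and 2 lower. The one that fell was Acp5, tartrate-resistant acid phosphatase, at 185, 231 and 217 CPM in the PH samples and 137, 151 and 147 CPM in the PM samples (-0.54 ± 0.09, adjusted p = 0.0146). It had adjusted p = 0.0552 without PH replicate 3, 0.0918 without PH replicate 4, 0.0507 without PM replicate 3 and 0.0758 without PM replicate 4. Hgsnat, which acetylates heparan sulfate, and Dnase2a, the acid nuclease, had the largest differences of those higher with the block alone (0.48 ± 0.14 and 0.46 ± 0.12). Among 21 other membrane proteins and transporters 1 rose and 8 were higher with the block. Gpnmb, a glycoprotein known to be induced with lysosomal stress, was at 4316, 4111 and 4942 CPM in the PH samples and 6543, 6489 and 6917 CPM in the PM samples (0.58 ± 0.09, adjusted p = 0.0157). Gpnmb had adjusted p = 0.059 without PH replicate 1, 0.0793 without PH replicate 3, 0.0586 without PM replicate 3 and 0.102 without PM replicate 4. With the block the macrophage sialomucin gene Cd68 (0.45 ± 0.11) and the endolysosomal channel gene Tpcn1 (0.44 ± 0.12) passed.

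Genes that control TFEB or work with lysosomes had smaller differences. Their counts stand beside 7.00% higher and 8.27% lower of all genes with the block, and 202 higher and 378 lower of 13992 genes by DESeq2. Counts at an unadjusted p under 0.05, also those of the cystatins below, have no share over all genes beside them. By edgeR without the block 0 of 19 genes of mTORC1, Ragulator and folliculin passed (4 at an unadjusted p under 0.05, 1 by DESeq2, namely Rragc), with 6 higher and 1 lower with the block. Those with the largest differences were Rragd, a Rag GTPase gene (0.41 ± 0.21), Fnip2, a folliculin partner (0.28 ± 0.08), and Tfec, the remaining relative of TFEB (-0.25 ± 0.12). For 20 autophagy genes these counts were 0 without the block, 6 at an unadjusted p under 0.05, 0 by DESeq2, and 7 higher and 1 lower with the block. Atg7, an enzyme of LC3 conjugation, had the largest of these (0.27 ± 0.09), followed by Map1lc3a, an LC3 gene (0.22 ± 0.07), and Uvrag, a partner in vesicle fusion (0.20 ± 0.08). Of 6 genes of mannose 6-phosphate and sortilin sorting 0 passed without the block (2 at an unadjusted p under 0.05, 0 by DESeq2), and with it Nagpa was higher (0.21 ± 0.08) and Gnptab lower (-0.17 ± 0.06).

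Cystatins, which inhibit cysteine cathepsins, lay mostly on the other side (all genes with the block: 7.00% higher, 8.27% lower). Of 7 tested 0 passed by edgeR without the block (3 at an unadjusted p under 0.05, 0 by DESeq2), and with the block 5 were lower and 1 higher, with a median log2 fold change of -0.31. The stefin genes Stfa2 (-0.54 ± 0.25), Stfa2l1 (-0.46 ± 0.18) and Stfa3 (-0.46 ± 0.40) had the largest differences, and since they are near-identical copies their reads could be split or lost in counting. Cst3, cystatin C and by far the most abundant per length (4739.8 CPM per kb), was at 3672, 4675 and 4105 CPM in the PH samples and 3595, 4369.9 and 4041 CPM in the PM samples, a log2 fold change of -0.05 ± 0.11 that passed in neither fit. Cstb, cystatin B, was higher with the block (0.21 ± 0.10).

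Levels per length spanned a wide range among the 44. Psap stood at 2826 CPM per kb of exon over all samples, followed by Ctsz (1600.1), Ctsd (1346), Sqstm1 (960.0) and Ctss (849). At the low end were Mcoln3 (2.30), Tfeb (3.36) and Mitf (7.30). Every glycosidase lay between 34.2 (Gaa) and 210.3 (Hexa) CPM per kb, and the V-ATPase genes between 35.4 (Atp6v1d) and 438 (Atp6v0b).

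**Figure D4:**
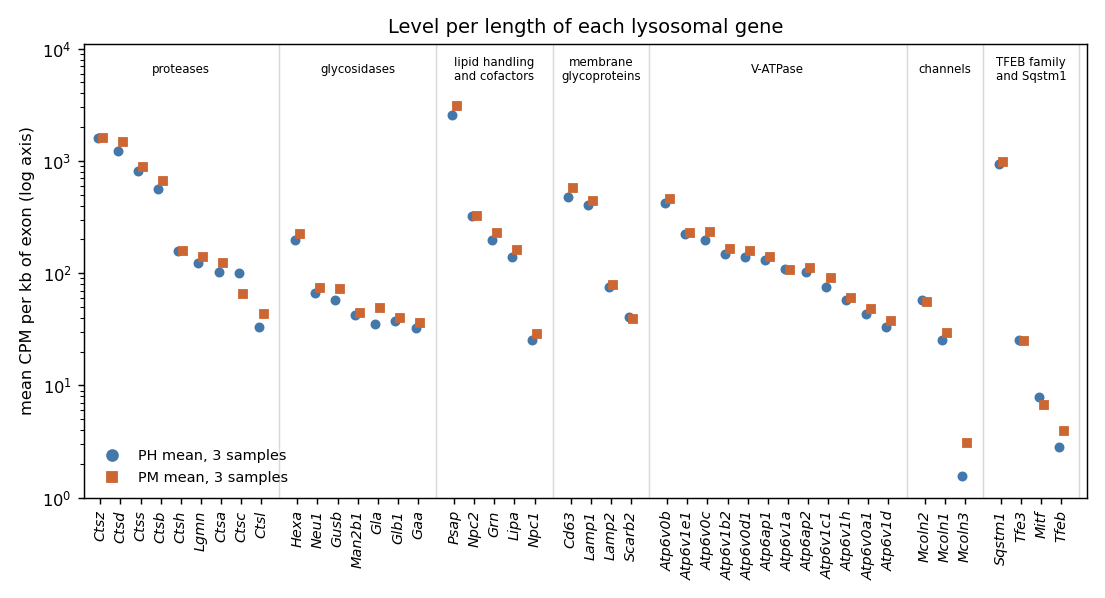
Mean CPM per kb of exon (log axis) of each gene with PH (circles) and PM (squares), 3 samples each, ordered by level within each class. The differences between the treatments are small beside those between genes, with Psap at the top and Mcoln3 at the bottom.

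Levels of many members also went with the sample id, though the sizes of the id and treatment differences were not compared gene by gene. In 25 of the 44 (56.8%) id 1 was the highest of the 3 ids in both treatments, against 24.3% of all genes tested. This held for 9 of 12 V-ATPase genes, 4 of 5 lipid-handling genes, 5 of 9 proteases and 4 of 7 glycosidases. The 9 protease genes summed to 11217, 9505 and 10124 CPM with PH and to 12993, 10514 and 10729.8 CPM with PM in ids 1, 3 and 4. PH sample 1 thus lay above PM samples 3 and 4, and in each id the PM sample was above its PH sample.

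The summed level of macrophage markers followed the same order of ids and overlapped between the treatments. It was 651, 428 and 478 CPM with PH and 631, 436 and 451 CPM with PM, most of it from Adgre1, which encodes F4/80, while C1qa, C1qb and C1qc were below 1 CPM in each sample. Of 8 conventional dendritic cell genes tested 0 passed without the block, and with it 1 was higher, the low-level Clec9a, and 0 were lower. Of 5 monocyte genes 1 fell, Cx3cr1 (-0.78 ± 0.15), with 1 higher and 3 lower with the block, and the list summed to 631 to 918 CPM with PH and 631 to 927 CPM with PM. Neutrophil genes (1 of 12 fell, Csf3r, and 4 were lower with the block) summed to 505 to 628 CPM with PH and 389 to 545 CPM with PM. The osteoclast list, which shares Ctsk, Acp5 and Atp6v0d2 with the lysosomal lists, had 2 higher and 1 lower of 7 tested and summed to 446 to 492 CPM with PH and 485 to 563 CPM with PM. Of 3 plasmacytoid dendritic cell genes tested 1 fell, Bst2 (-0.59 ± 0.07), and 2 were lower with the block. That list, most of it Bst2, summed to 302 to 325 CPM with PH and 213 to 226 CPM with PM, without overlap. Stromal genes (1 of 5 fell, Pdgfrb) summed to 64.3 to 147 CPM with PH and 66.7 to 128 CPM with PM. Over all genes 7.00% were higher and 8.27% lower with the block, and 0.702% and 1.64% without it. The part of these cell type markers in the lysosomal differences was not tested.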

How the data were processed

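The authors deposited raw counts of reads per gene. Trimmomatic, STAR 2.5.3a, featureCounts 1.6.4 and GRCm38 were used, per the submitters' processing notes. Not given in the sources used here are the annotation, the strand option and how multiply mapped reads were counted. The deposited table also gives each gene's exon length in bases. It has 6 count columns for the series' 8 libraries: those of PM id 1 and PH id 3 each match a pair of runs, and no source used here says whether 1 run or both were counted.

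Counts of all genes were tested with edgeR 4.0.16 in R 4.3.3 (TMM, filterByExpr with minimum count 10, robust quasi-likelihood test, Benjamini-Hochberg over 14382 genes, threshold 0.05), without a block as the main fit. The SE comes from the test's F value. Alternatives were the sample id as a block, RLE factors, library totals, DESeq2 1.42.0, other filters and leaving out samples or ids. Deviations from the group mean correlated at 0.447, 0.332 and 0.264 between samples with the same id (ids 1, 3 and 4). Those of different ids were at -0.351 to 0.0369, in part by construction, because the deviations within a group sum to 0. Pairing by id was accepted from the same-id values, on the counts and not on the labels. The main fit leaves this pairing out, and the fit with the block uses it. Differences within ids used log2 CPM with a prior count of 2. No label names separate animals or cultures, so p-values reflect only the spread among these libraries, which may be technical.

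The members and lists were chosen with earlier results of these data known. Named were all members that passed, the most abundant of each class per length, those with the largest differences, every channel and TFEB family gene, and of the other lists the genes that passed plus up to 3 per list with the block. Calls for single genes of the macrophage marker list are not reported here. Of the list genes, only BC100530 was not matched in the table.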

Additional observations from a re-analysis of the deposited data

How the results depend on the processing

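With a replicate block for the sample id 25 members were higher and 2 lower with PM, against 2 and 1 without it. That block with RLE size factors, or with a filter of 1 CPM in 3 samples, gave 23 and 2 each, where 945 of 14382 and 917 of 12549 genes were higher. Leaving out 1 id of both treatments from the blocked fit gave 22 (id 1), 16 (id 3) or 18 (id 4) higher and 1 to 2 lower. Over all genes those fits had 868, 644 and 696 higher, against 1007 with all ids. Without the block, 5 were higher with no low-count filter (Gusb, Atp6v1c1 and Tfeb joining) and 3 by DESeq2 (Cd63 joining). Over all genes 349 of 27765 and 202 of 13992 were higher in these 2 settings, against 101 of 14382 in the main fit. Outside the 44, Ctsk lost its call with no low-count filter (adjusted p = 0.168, log2 fold change 0.88). The cause of these changes was not tested. Without 1 sample at a time 0 to 2 members were higher, and 1 was lower each time, where 26 to 111 of all genes were higher and 107 to 306 lower. At 0 higher, without PM replicate 4, the lower one was Ctsc. The median log2 fold change of the members was 0.169 with library totals in place of TMM, where that of all genes was 0.034, and 0.084 (without PM replicate 1) to 0.166 (without PM replicate 3) with 1 sample left out. With an id left out of both treatments the blocked median was 0.132 to 0.15. Among the 44 and Atp6v0d2, Ctsk, Dpp7, Acp5 and Gpnmb, no result changed direction past the threshold under the alternatives run. Other genes named here were not followed through the other size factors, the other filters or the samples left out. With groups of 3, shifts as small as the members' median lay near the spread between samples for single genes, and the levels of Mcoln3, Tfeb and Mitf rest on the fewest reads.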
